A study of Homo sapiens with 6 samples.

Results

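Translation initiation factors are the proteins that bring the initiator tRNA, the small ribosomal subunit and an mRNA together at a start codon. The genes described here are all those of the count tables whose symbol begins with EIF1, EIF2, EIF3, EIF4, EIF5 or EIF6, leaving out the eIF2 kinase genes EIF2AK1 to EIF2AK4. This rule gave 52 of 19923 genes, of which 50 had enough counts to be tested. EIF4E1B, an egg-cell relative of EIF4E, and the Y-linked EIF1AY were removed by the filter on low counts.

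The libraries came from Kelly cells, an established neuroblastoma line labelled as MYCN-amplified and of WT genotype. Cells were transfected with control siRNA (siControl, 3 libraries) or with siRNA against METTL3 (siMETTL3, 3 libraries) and collected after 72 hours, and both groups received the same lipid transfection. METTL3 is the catalytic subunit of the enzyme complex that places N6-methyladenosine (m6A) on mRNA. How many siRNA sequences were used, and whether the libraries of a group came from separate cultures, is not given in the sources used here, so p-values measure only the spread between these libraries.

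As background, eIF2 carries the initiator tRNA as a complex with GTP, and eIF2B recharges eIF2 with GTP after each round. eIF3 is the large scaffold that holds the small subunit and recruits the mRNA. The eIF4 factors recognise the cap and unwind the mRNA, and the 4E-BP proteins hold the cap-binding protein back until mTORC1 phosphorylates them. eIF1 and eIF1A govern start-codon choice, and eIF5 and eIF5B complete the joining of the subunits. eIF3 has also been reported to bind m6A, and its subunit eIF3h to bind METTL3 itself.

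The sequences at the annotated start of 10 of these genes are shown first, because transcripts that begin with a C followed by a run of pyrimidines (a 5′ terminal oligopyrimidine, or TOP, start) are a known class of mRNAs for the translation machinery. Each line gives 15 bases before and 15 bases from the RefSeq start on (GRCh38.p14, 5′ to 3′ on the gene's strand), with the pyrimidine run in capitals. All tested initiation factor genes in which such a run was found are given, the 6 that fell before the 4 that did not pass. EIF2S2, EIF3A, EIF3CL, EIF3E, EIF3G, EIF3H, EIF3L and EIF4EBP1 had no RefSeq promoter entry, so their starts were not searched.
EIF2S3, chrX:24054941-24054970, plus strand: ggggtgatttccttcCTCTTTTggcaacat
EIF2S3B, chr12:10505875-10505904, plus strand: ggggtgactttcttcCTCTTTTggcaacat
EIF2A, chr3:150546772-150546801, plus strand: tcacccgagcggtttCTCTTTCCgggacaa
EIF3M, chr11:32583816-32583845, plus strand: gcgcggcccagttccCTTTTCCggtcggcg
EIF3D, chr22:36529152-36529181, minus strand: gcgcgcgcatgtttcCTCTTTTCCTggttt
EIF4B, chr12:53006441-53006470, plus strand: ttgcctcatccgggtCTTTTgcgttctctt
EIF4A2, chr3:186783562-186783591, plus strand: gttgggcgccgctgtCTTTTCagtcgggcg
EIF3F, chr11:7987322-7987351, plus strand: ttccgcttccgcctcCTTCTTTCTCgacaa
EIF3K, chr19:38619173-38619202, plus strand: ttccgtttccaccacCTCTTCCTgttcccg
EIF2D, chr1:206612451-206612480, minus strand: ggtttccagccgggcCCTTTTCgcggccgg

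METTL3, the targeted gene, was measured at 53.5, 52.8 and 56.2 CPM (counts scaled to the size of each library) in siControl and at 32.99, 31.8 and 34.3 CPM in siMETTL3. The groups did not overlap, and METTL3 fell with a log2 fold change of -0.71 (SE 0.070, edgeR FDR 4.68e-06), which left 61.0% of the control level. Library totals ran from 15430000 to 21565013 counts. Of the noradrenergic neuroblastoma markers, MYCN stood at 3021 ± 134 CPM in siControl and 4638 ± 169 CPM in siMETTL3 and DBH at 1074 ± 120 and 1374 ± 47.7 CPM (SD, n = 3). Both rose, as did HAND2, GATA3 and TH, while ISL1 fell and PHOX2A did not pass (log2 fold change -0.10, FDR 0.311). The 9 markers of leukocytes, epithelium, fibroblasts and endothelium together reached 9.96 to 13.6 CPM in siControl and 13.4 to 14.2 CPM in siMETTL3, with 0 to 2 of them at 0 counts in a library. The fibroblast marker COL1A1, at 2.96 CPM in siControl and 5.26 CPM in siMETTL3, rose (log2 fold change 0.86, FDR 0.0200). The part of these marker changes in the results below was not tested. Libraries of a group differed by more than counting noise, with a chi-square per degree of freedom of 3.11 to 3.84 between siMETTL3 libraries and of 5.74 to 16.9 between siControl libraries, the highest between replicates 1 and 3. siControl replicate 3 was the shallowest library. It gave the highest siControl value for 30 of the 50 initiation factor genes, and replicate 1 gave the lowest for 28.

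Initiation factor genes were more often lower than higher after METTL3 siRNA. At an FDR under 0.05 (Benjamini-Hochberg over all 15311 tested genes), 20 of the 50 fell and 4 rose, and 26 did not pass. Over all tested genes 37.8% were called, 19.2% as lower and 18.6% as higher, against 40% and 8% of the initiation factor genes. In 29 of the 50 the 3 values of one group lay above all 3 of the other, a share of 58%, against 49.9% of all tested genes. The median log2 fold change was -0.13, beside -0.0021 over all tested genes, and only EIF1B, EIF5B and EIF2S3B changed by more than 0.5 on the log2 scale in either direction. Relative to the siControl mean, the median initiation factor gene lay at -0.13, -0.12 and -0.14 in siMETTL3 replicates 1, 2 and 3 and at -0.053, 0.00060 and 0.047 in the siControl libraries. Together the 52 genes took 0.869%, 0.909% and 0.974% of the counts in siControl replicates 1, 2 and 3 and 0.787%, 0.792% and 0.791% in those of siMETTL3. As bulk counts, these values cannot tell less RNA per cell from fewer cells that make it.

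The initiation factor genes are also more abundant than most, with a median level of 82.5 CPM against 33.6 CPM over all tested genes, and abundant genes were more often called lower. Of the 3633 tested genes at or above 82.5 CPM, 30.4% were called lower and 21.4% higher. Among the 25 initiation factor genes at or above it, 13 fell and 1 rose. Without siControl replicate 3, 22 of the 50 fell and 4 rose, while 40.5% of all tested genes were called, 48.9% of those as higher. Without siMETTL3 replicate 1 the counts were 15 and 2, and 27.2% of all tested genes were called. With an offset for intron length 22 fell and 3 rose. In that fit 39.6% of all tested genes were called, and 36.9% of all called genes were higher in place of 49.2%. With GC content and transcript length offset, 22 fell and 5 rose. That fit called 42.5% of all tested genes, and 40.6% of all called genes were higher.

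**Figure D1:**
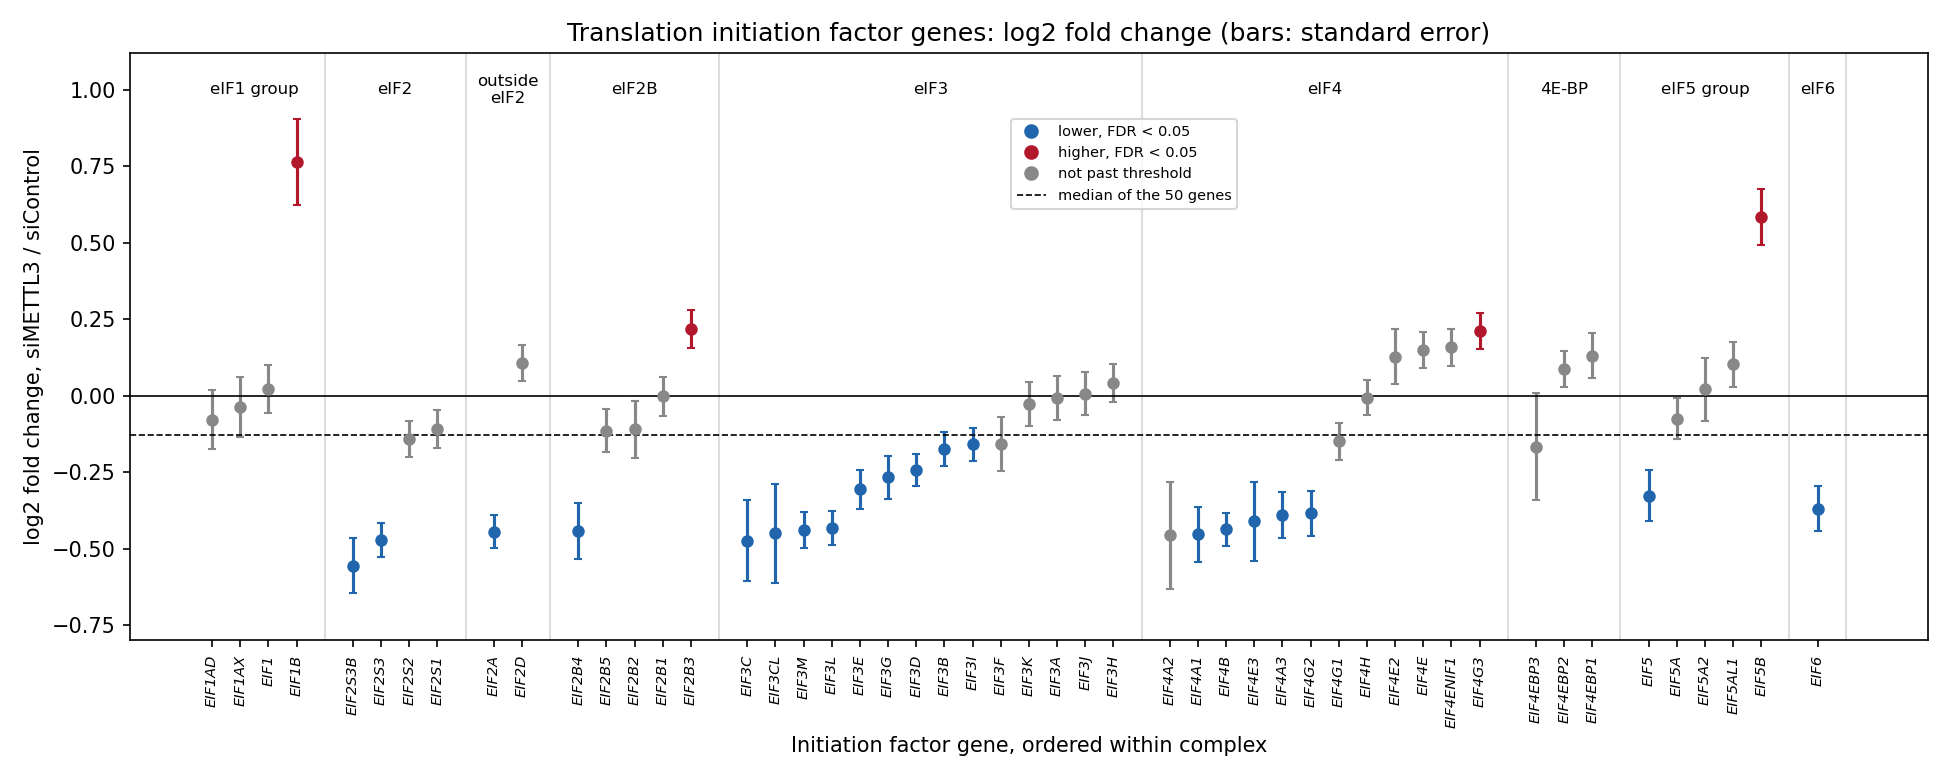
Log2 fold change (siMETTL3 over siControl, y axis) of each of the 50 tested initiation factor genes (x axis), grouped by complex, with the standard error as bars and the median of the 50 as a dashed line. The 20 lower genes lie between -0.56 and -0.16, and the 4 higher genes are EIF1B, EIF5B, EIF2B3 and EIF4G3.

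In eIF2, the complex that delivers the initiator tRNA, the gamma subunit fell and the other subunits did not pass. EIF2S3, which encodes the GTP-binding gamma subunit (chromosome X, 24054946 to 24078810, plus strand), was measured at 267, 252 and 268 CPM in siControl and at 189.9, 183 and 195 CPM in siMETTL3. All siMETTL3 libraries lay well below all siControl libraries, the log2 fold change was -0.47 (SE 0.055) and the FDR of 2.27e-05 was the lowest of any initiation factor gene. Its retrotransposed copy EIF2S3B on chromosome 12 had 32.4, 37.6 and 39.6 CPM in siControl and 23.8, 26.2 and 24.3 CPM in siMETTL3. The groups were again separate (log2 fold change -0.56, SE 0.091, FDR 0.000338). The coding sequences of these copies are 98.2% identical, so the division of reads between them is uncertain. EIF2S1, the alpha subunit that the stress kinases phosphorylate, had a log2 fold change of -0.11 (FDR 0.189), and EIF2S2, the beta subunit, one of -0.14 (FDR 0.0710). EIF2S2 passed without siControl replicate 3 (-0.15, FDR 0.0445) and with the intron length offset (-0.19, FDR 0.0177). It shares 83.6% of its span with RALY on the opposite strand, which itself was higher (log2 fold change 0.21, FDR 0.0140), and the counting used no strand, so its reads and those of RALY cannot be told apart there.

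Of the factors that can bring the initiator tRNA without eIF2, EIF2A fell and EIF2D did not pass. EIF2A had nearly equal values of 154, 153 and 154 CPM in siControl and 115, 108 and 116 CPM in siMETTL3. Its log2 fold change was -0.44 (SE 0.055, FDR 3.36e-05). The whole EIF2A span lies inside SERP1 on the opposite strand, and SERP1 had a log2 fold change of -0.36 (FDR 0.000161). The counting used no strand, so reads of EIF2A and SERP1 cannot be told apart there, and the SERP1 value is not a separate result. EIF2D, whose product releases and reloads ribosomal subunits, had a log2 fold change of 0.11 (FDR 0.181), although its 3 siMETTL3 values lay above its 3 siControl values.

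Among the 5 subunits of eIF2B, the exchange factor for eIF2, 1 fell, 1 rose and 3 did not pass. These shares of 20% each are near the 19.2% lower and 18.6% higher of all tested genes. EIF2B4, the delta subunit of the regulatory core, was measured at 33.7, 36.8 and 36.9 CPM in siControl and at 25.6, 29.5 and 23.8 CPM in siMETTL3. It fell with a log2 fold change of -0.44 (SE 0.091, FDR 0.00183). EIF2B3, the gamma subunit of the catalytic part, had 64.0, 65.5 and 61.2 CPM in siControl and 73.8, 77.1 and 70.9 CPM in siMETTL3, with no overlap, and rose with a log2 fold change of 0.22 (SE 0.062, FDR 0.0136). EIF2B3 carries 132790 bases of intron, reads over introns are counted, and with an offset for intron length it did not pass (log2 fold change 0.10, FDR 0.234). Nor did it pass without siMETTL3 replicate 1 (FDR 0.0528) or replicate 2 (FDR 0.0739). The alpha subunit EIF2B1, part of the regulatory core that binds phosphorylated eIF2, had a log2 fold change of -0.0025. EIF2B2 (-0.11) and the catalytic subunit EIF2B5 (-0.11) did not pass either, although EIF2B5 did when GC content and transcript length were offset (-0.21, FDR 0.0216).

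The eIF3 scaffold held the largest number of lower genes. Of its 14 genes 9 fell, 64.3% against the 19.2% of all tested genes called lower, and none rose in edgeR or DESeq2, nor was any higher at an unadjusted edgeR p under 0.05. Many eIF3 genes lie at or above 82.5 CPM, where 30.4% of all tested genes were called lower. Without EIF3CL, the near-identical copy of EIF3C, 8 of 13 fell. The median log2 fold change was -0.21. EIF3L, a subunit of the PCI/MPN core that binds the small ribosomal subunit, was measured at 514, 528 and 553 CPM in siControl and at 402, 384 and 396 CPM in siMETTL3. It was the most abundant eIF3 gene per kilobase of transcript (199 ± 7.38 CPM per kb in siControl, SD, n = 3) and fell with a log2 fold change of -0.43 (SE 0.055, FDR 4.62e-05). EIF3M, another core subunit, had 117, 123 and 129 CPM in siControl and 89.9, 89.9 and 91.8 CPM in siMETTL3. All 3 siMETTL3 values lay within 2 CPM of each other and under every siControl value (log2 fold change -0.44, SE 0.058, FDR 5.72e-05). CCDC73, which overlaps 17.9% of the EIF3M span on the other strand, had a log2 fold change of -0.76 (FDR 3.75e-05). Reads in the shared part were counted for both genes.

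Beside the 19.2% of all tested genes called lower, 4 of the 8 core subunits of eIF3 fell and 4 did not pass. Besides EIF3L and EIF3M these were EIF3E, first known as a viral integration site in mouse mammary tumours (log2 fold change -0.31, FDR 0.00202, and -0.17, FDR 0.0101, with GC content and transcript length offset), and EIF3C. EIF3C was measured at 44.7, 32.7 and 38.6 CPM in siControl and at 25.8, 33.2 and 24.5 CPM in siMETTL3. One siMETTL3 library thus lay above the lowest siControl library, the log2 fold change was -0.47 (SE 0.13, FDR 0.0154), and it did not pass without siMETTL3 replicate 1 (FDR 0.0664) or replicate 3 (FDR 0.0655). Its neighbour copy EIF3CL (log2 fold change -0.45, FDR 0.0420) has an identical coding sequence over the 2739 bases that align, so reads of EIF3C and EIF3CL cannot be assigned to one or the other with confidence. EIF3CL was lost in 5 of the 6 fits that each left out a library (FDR up to 0.143) and under DESeq2 (FDR 0.0826). The core subunits EIF3A (log2 fold change -0.0061), EIF3F (-0.16), EIF3H (0.042) and EIF3K (-0.026) did not pass. EIF3H, the subunit reported to bind METTL3, had 192, 184 and 213 CPM in siControl and 204, 199.5 and 202 CPM in siMETTL3, so that the siMETTL3 values fell inside the range of the siControl values.

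The b, g and i subunits, which form the mobile arm of eIF3 near the mRNA entry channel, all 3 fell. Over all tested genes 19.2% were called lower. EIF3G had a log2 fold change of -0.27 (FDR 0.00815), EIF3B one of -0.17 (FDR 0.0237) and EIF3I one of -0.16 (FDR 0.0314). With GC content and transcript length offset EIF3B was at -0.34 (FDR 3.54e-05). Only EIF3G kept its call in each fit that left out a library. EIF3B, which shares 0.874% of its span with SNX8 on the opposite strand (log2 fold change 0.34, FDR 0.0216), did not pass without siControl replicate 2 (FDR 0.114), siMETTL3 replicate 1 (FDR 0.109) or siMETTL3 replicate 3 (FDR 0.118). EIF3I did not pass in 4 of those 6 fits: without siControl replicate 2 (FDR 0.108), siMETTL3 replicate 1 (FDR 0.0906), siMETTL3 replicate 2 (FDR 0.0696) or siMETTL3 replicate 3 (FDR 0.122). EIF3D, the subunit reported to bind the cap of selected mRNAs, fell from 285 ± 7.05 to 241 ± 3.99 CPM (SD, n = 3; log2 fold change -0.24, FDR 0.00253). EIF3J, a loosely held subunit, had a log2 fold change of 0.0062.

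In the eIF4 group EIF4A1, EIF4A3, EIF4B, EIF4E3 and EIF4G2 fell and EIF4G3 rose. That is 41.7% lower and 8.33% higher, against 19.2% and 18.6% of all tested genes. The other 6 of its 12 tested genes did not pass, and the median log2 fold change was -0.27. That median was -0.023 when only genes without overlaps were fitted, which leaves out EIF4A1, EIF4A2, EIF4E3, EIF4ENIF1 and EIF4G2. With GC content and transcript length offset the eIF4 median was -0.36, and the median over all tested genes moved from -0.0021 to -0.039. EIF4B, which stimulates the eIF4A helicase, was measured at 446, 427 and 429 CPM in siControl and at 322, 318 and 322 CPM in siMETTL3. The siMETTL3 libraries were nearly identical and all below siControl, with a log2 fold change of -0.44 (SE 0.053, FDR 2.94e-05). EIF4A3, the helicase of the exon junction complex rather than of cap-dependent initiation, had 99.2, 122 and 116.5 CPM in siControl and 87.3, 88.0 and 82.05 CPM in siMETTL3. It fell by 0.39 on the log2 scale (SE 0.075, FDR 0.00107), with no overlap between the groups.

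The helicase genes EIF4A1 and EIF4A2 were the most abundant initiation factor genes per kilobase of transcript, at 577 ± 90.4 and 637 ± 161 CPM per kb in siControl (SD, n = 3). EIF4A1, the main eIF4A of growing cells, had 870.4, 991 and 1185 CPM in siControl and 739.7, 743.5 and 740.5 CPM in siMETTL3. The siControl values were widely spread and the siMETTL3 values were not, and EIF4A1 fell with a log2 fold change of -0.45 (SE 0.090, FDR 0.00197). Its span is shared almost entirely (95.4%) with the readthrough gene SENP3-EIF4A1 on the same strand, so their counts hold the same reads. EIF4A2, the paralogue more common in neurons, had 941, 1128 and 1534 CPM in siControl and 841, 853 and 929.8 CPM in siMETTL3. The groups did not overlap, but siControl replicate 3 alone was far above the rest and EIF4A2 did not pass (log2 fold change -0.46, SE 0.17, FDR 0.0873). Without that library its log2 fold change was -0.24 with an FDR of 0.00584, and without siControl replicate 1 it was -0.61 (FDR 0.00570). With all libraries, EIF4A2 passed in limma-voom (-0.43, FDR 0.0180) and in edgeR without the robust option (-0.46, FDR 0.0149), and did not in DESeq2 (-0.46, FDR 0.0868). RFC4, which overlaps only 0.269% of the EIF4A2 span on the opposite strand, fell (log2 fold change -0.30, FDR 0.00306). EIF4A2 took 52.4% ± 2.32 of the summed length-scaled counts of the pair in siControl and 52.6% ± 1.36 in siMETTL3 (SD, n = 3).

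Among the eIF4G scaffolds, EIF4G2 fell, EIF4G3 rose and EIF4G1 did not pass. EIF4G2 (also called DAP5), which lacks the eIF4E-binding part, was measured at 517, 561 and 639.6 CPM in siControl and at 435, 424 and 457 CPM in siMETTL3. Its groups were separate and the log2 fold change was -0.38 (SE 0.073, FDR 0.00107). CTR9, which overlaps 38.5% of the EIF4G2 span on the opposite strand, had a log2 fold change of -0.36 (FDR 0.0150). Reads in the shared part were counted for both genes. EIF4G3, the longest of these genes with 359109 bases of intron, went from 309 ± 13.1 to 358 ± 17.1 CPM (SD, n = 3; log2 fold change 0.21, FDR 0.0116). With GC content and transcript length offset its log2 fold change was 0.13 (FDR 0.0451). With the offset for intron length it did not pass (log2 fold change 0.13, FDR 0.0925), nor without siControl replicate 2 (FDR 0.0796) or siMETTL3 replicate 1 (FDR 0.0893). EIF4G1, the main scaffold, had 655, 638 and 593 CPM in siControl and 549.9, 599.9 and 552 CPM in siMETTL3. One siMETTL3 library was above the lowest siControl library (log2 fold change -0.15, FDR 0.0698). EIF4G1 passed without siControl replicate 3 (-0.19, FDR 0.00226), with the intron length offset (-0.17, FDR 0.0215), when only genes without overlaps were fitted (-0.17, FDR 0.0438), and when GC content and transcript length were offset (-0.37, FDR 5.37e-06).

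The cap-binding protein genes differed among themselves. EIF4E, which encodes the cap-binding subunit limiting for many growth-related mRNAs, had 81.3, 82.4 and 77.05 CPM in siControl and 91.2, 87.7 and 88.5 CPM in siMETTL3. Every siMETTL3 value was above every siControl value, but the log2 fold change of 0.15 (SE 0.058) was not past the threshold (FDR 0.0563). EIF4E passed with upper quartile scaling (0.16, FDR 0.0371), with total counts (0.17, FDR 0.0361), with GC content and transcript length offset (0.32, FDR 0.000454), and on genes with at least 10 counts in every library (0.16, FDR 0.0462). With the intron length offset its log2 fold change was 0.049 (FDR 0.530). EIF4E3, the least abundant of the tested eIF4 genes, fell from 12.1 ± 1.46 to 9.05 ± 0.798 CPM (SD, n = 3; log2 fold change -0.41, FDR 0.0224). The whole EIF4E3 span is shared with AC097634.4 on the same strand (log2 fold change -0.068, FDR 0.427), and EIF4E3 did not pass without siControl replicate 3 (FDR 0.0613), siMETTL3 replicate 1 (FDR 0.0981) or siMETTL3 replicate 3 (FDR 0.0734). EIF4E2, a cap-binding repressor, had a log2 fold change of 0.13 (FDR 0.289). EIF4ENIF1, the shuttling protein that carries eIF4E into the nucleus, had one of 0.16 (FDR 0.0523) and passed without siControl replicate 1 (0.20, FDR 0.0156), with upper quartile scaling (0.17, FDR 0.0376), with total counts (0.18, FDR 0.0336) and with the 10-count filter (0.16, FDR 0.0433). The whole EIF4ENIF1 span is shared with DRG1 and SFI1 on the opposite strand, and SFI1 was higher (log2 fold change 0.26, FDR 0.00343). The log2 fold change of EIF4ENIF1 was 0.051 (FDR 0.540) with the intron length offset and 0.056 (FDR 0.437) with GC content and transcript length offset. EIF4H, another helper of the helicase, had one of -0.0060.

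The 4E-BP genes encode the repressors that compete with eIF4G for eIF4E, and none of the 3 passed in edgeR or DESeq2, nor had an unadjusted edgeR p under 0.05. EIF4EBP1 was measured at 80.2, 67.4 and 68.9 CPM in siControl and at 77.55, 82.5 and 77.2 CPM in siMETTL3. siControl replicate 1 lay among the siMETTL3 libraries, and the log2 fold change was 0.13 (SE 0.072, FDR 0.174). Without that library EIF4EBP1 rose by 0.22 on the log2 scale (FDR 0.0133). EIF4EBP2, the 4E-BP prominent in brain, had 106, 113 and 113 CPM in siControl and 114, 116 and 123 CPM in siMETTL3, with a log2 fold change of 0.086 (SE 0.058, FDR 0.267). EIF4EBP3 was low, at 5.75, 7.81 and 6.37 CPM in siControl and 6.997, 5.88 and 4.87 CPM in siMETTL3, and the groups overlapped (log2 fold change -0.17, FDR 0.488). Its whole span is shared with other genes, the readthrough gene ANKHD1-EIF4EBP3 on the same strand and SRA1 on the opposite strand.

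**Figure D2:**
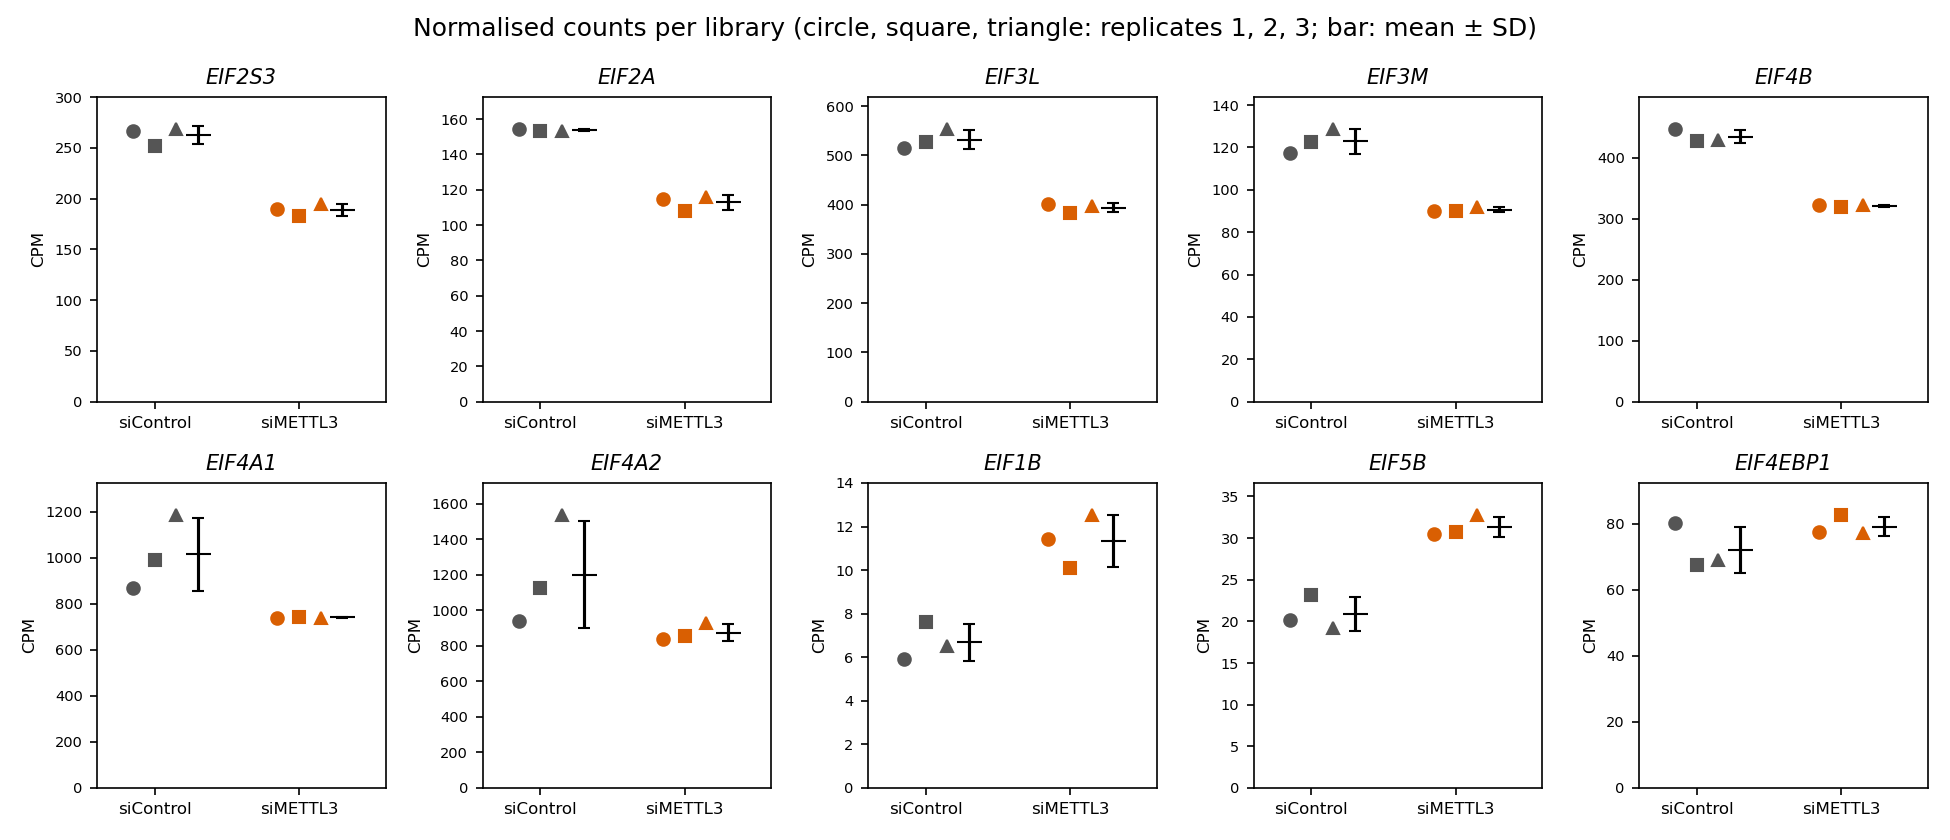
CPM (y axis, starting at 0) of 10 initiation factor genes in each library, with siControl in grey and siMETTL3 in orange, replicates 1, 2 and 3 as circle, square and triangle, and mean ± SD as a bar. EIF2S3, EIF2A, EIF3L, EIF3M and EIF4B separate the groups with little spread, the siControl values of EIF4A1 and EIF4A2 are spread, EIF1B and EIF5B are higher in siMETTL3, and EIF4EBP1 overlaps.

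The rises of EIF1B and EIF5B, the largest among the 50 genes, were in the factors of start-codon recognition and subunit joining. EIF1B, a paralogue of the start-codon factor EIF1, was measured at 5.93, 7.61 and 6.504 CPM in siControl and at 11.4, 10.1 and 12.5 CPM in siMETTL3. The lowest siMETTL3 value exceeded the highest siControl value, and EIF1B rose 1.70-fold (log2 fold change 0.76, SE 0.14, FDR 0.000843). EIF1 itself, at 69.9, 83.0 and 87.7 CPM in siControl and 85.2, 78.6 and 79.8 CPM in siMETTL3, had a log2 fold change of 0.021 (FDR 0.863). EIF1B therefore took 10.4% ± 0.988 of the summed length-scaled counts of EIF1 and EIF1B in siControl and 16.3% ± 1.45 in siMETTL3 (SD, n = 3). The coding sequences of EIF1 and EIF1B are 82.0% identical. EIF1AX, which encodes eIF1A, and EIF1AD, a nuclear protein with an eIF1A-like domain, had log2 fold changes of -0.036 and -0.079.

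EIF5B, the GTPase that joins the large subunit, had 20.2, 23.2 and 19.25 CPM in siControl and 30.5, 30.7 and 32.7 CPM in siMETTL3. The groups were clearly apart and EIF5B rose 1.498-fold (log2 fold change 0.58, SE 0.091, FDR 0.000235). It shares 6.54% of its span with REV1 and TXNDC9 on the opposite strand. REV1 was higher (log2 fold change 0.20, FDR 0.0270) and TXNDC9 did not pass (0.34, FDR 0.137). EIF5, which activates the GTPase of eIF2, had 168, 198 and 221 CPM in siControl and 151, 157 and 159 CPM in siMETTL3. Every siMETTL3 value was below every siControl value, and EIF5 fell (log2 fold change -0.33, FDR 0.00847). EIF5A, which despite its name acts mostly in elongation and carries the modified residue hypusine, had a log2 fold change of -0.075 (FDR 0.412), its paralogue EIF5A2 one of 0.021 and its intronless copy EIF5AL1 (coding sequence 98.9% identical to EIF5A) one of 0.10 (FDR 0.299). With the intron length offset EIF5AL1 passed, at 0.30 (FDR 0.00301). Of the enzymes that make hypusine, DHPS rose (log2 fold change 0.21, FDR 0.0280) and DOHH had a log2 fold change of 0.10 (FDR 0.534). EIF6, which keeps the large subunit from joining too early, was measured at 62.4, 69.5 and 73.7 CPM in siControl and at 53.55, 55.25 and 50.01 CPM in siMETTL3. The groups did not overlap, and EIF6 fell with a log2 fold change of -0.37 (SE 0.074, FDR 0.00145). AL121753.1, which shares 18.65% of the EIF6 span on the same strand, did not pass (log2 fold change -0.14, FDR 0.0781).

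Several features not used to choose the genes were examined. A pyrimidine run at the start (C, then at least 4 of C or T at the first annotated bases) was found in 10 of the 42 tested initiation factor genes with a RefSeq promoter entry, or 23.8%, against 5.21% of 11813 tested genes. Of these 10, 6 fell, and the median log2 fold change was -0.44. In the 32 without the run, 10 fell, 4 rose, and the median was -0.077. The fallen genes with the run were EIF2S3, EIF2S3B, EIF2A, EIF3M, EIF3D and EIF4B. EIF4A2, EIF3F, EIF3K and EIF2D had the run and did not pass, and the run of EIF3F, 10 bases long, was longer than the 5 bases of EIF4B. Over all tested genes, 28.4% of the 616 with the run were called lower and 19.3% of those without. This class was defined after the fold changes had been seen, an annotated start need not be the start used in Kelly cells, and EIF2S3B is a copy of EIF2S3, so the comparison is a description only.

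**Figure D3:**
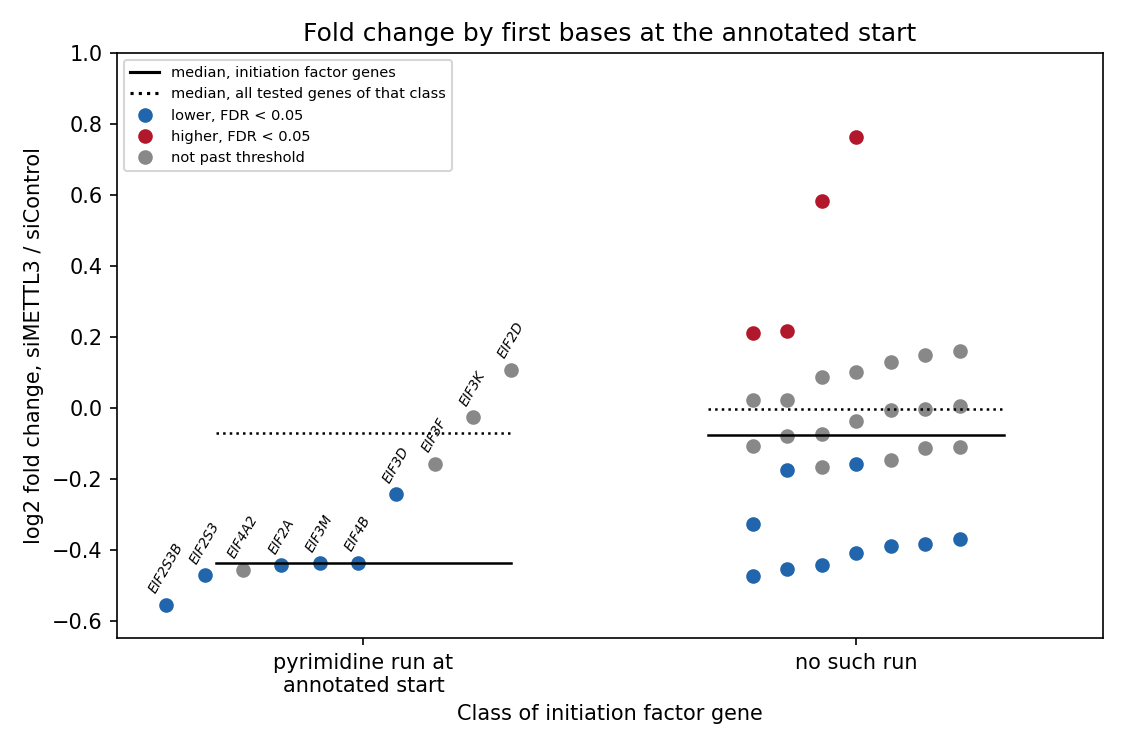
Log2 fold change (y axis) of the 42 initiation factor genes with a promoter entry, split by whether a pyrimidine run begins at the annotated start (x axis), with the median of each class as a solid line and that of all tested genes of the class as a dotted line. The 10 genes with the run have a median of -0.44 and the 32 without it one of -0.077.

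The E-box CACGTG, the letters that MYC and MYCN proteins bind with MAX, was searched from 250 bases before to 50 bases after the RefSeq start. It was present in 11 of 44 initiation factor genes with an entry (25%), against 8.89% of 15085 genes of the tables. The word is its own reverse complement, so a match lies on both strands. MYCN was itself higher in siMETTL3 (log2 fold change 0.62, FDR 5.17e-06). The 11 genes went in both directions: EIF1B and EIF2B3 rose, EIF4A3 and EIF4B fell, and EIF3F, EIF3K, EIF4E, EIF4EBP3, EIF4G1, EIF4H and EIF5A2 did not pass. Over all tested genes with an entry, 20% of those with the E-box were called higher and 19.8% lower, against 18.1% and 19.8% of those without. The sequence around the E-box (capitals) is shown for the called genes, upstream of the start on the gene's strand.
EIF1B, chr3:40309626-40309685, plus strand: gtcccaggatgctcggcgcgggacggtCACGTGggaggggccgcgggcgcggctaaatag
EIF2B3, chr1:44986742-44986801, minus strand: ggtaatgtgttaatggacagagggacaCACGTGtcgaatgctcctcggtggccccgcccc
EIF4A3, chr17:80147217-80147276, minus strand: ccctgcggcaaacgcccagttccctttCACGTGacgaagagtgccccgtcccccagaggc
EIF4B, chr12:53006407-53006455, plus strand: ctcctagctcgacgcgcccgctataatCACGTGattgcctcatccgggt

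The ATF4 element TGATGCAA and the cyclic AMP element TGACGTCA, each searched on both strands, were found in 0 of the 44 windows, against 0.670% and 2.63% of all genes. In the canonical transcripts, GGACT, the commonest word at m6A sites, occurred at least once on the sense strand in 44 of the 50 tested genes (88%) and in 91.3% of all tested genes. It was present in 18 of the 20 lower genes, all 4 higher genes and 22 of the 26 that did not pass. Across the 50 genes, Spearman's rho with the log2 fold change was 0.10 for GGACT per kilobase, -0.06 for GC content, 0.00 for transcript length, 0.22 for intron length and -0.22 for mean level. Over all tested genes these were 0.07, 0.18, 0.09, 0.19 and -0.14. All of them share the same 6 libraries, and reads over introns enter every count. The 28 tested initiation factor genes whose span is shared with no other gene held 10 lower and 3 higher genes, and the 22 with a shared span held 10 and 1. When only genes without overlaps were fitted, 11 of the 28 were lower and 3 higher. In that fit 39.4% of all 9518 tested genes were called, 49.4% of those as higher. Leaving aside the near-identical copies EIF3C, EIF3CL, EIF2S3B and EIF5AL1, 17 of 46 fell and 4 rose. Over all tested genes of the main fit, 19.2% were called lower and 18.6% higher.

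The genes that work with the initiation factors were taken from lists chosen for their function, with earlier results of these data known. The shares of these lists are therefore a description only. Among 19 partners outside the EIF symbols, 8 fell, 1 rose and 10 did not pass. That is 42.1% lower and 5.26% higher, against 19.2% and 18.6% of all tested genes. PAIP1, which links the poly(A)-binding protein to eIF4A, fell from 57.7 ± 8.65 to 38.4 ± 0.293 CPM (SD, n = 3; log2 fold change -0.58, FDR 0.000394). PDCD4, an inhibitor of the eIF4A helicase, fell from 115 ± 8.97 to 82.0 ± 4.54 CPM (log2 fold change -0.48, FDR 0.000113). The recycling factors ABCE1 (-0.25, FDR 0.00410) and DENR (-0.27, FDR 0.00483), the helicase gene DDX3X (-0.22, FDR 0.0127), the eIF5 mimic BZW1 (-0.20, FDR 0.0349), the eIF4E-binding CYFIP1 (-0.20, FDR 0.0138) and the nuclear cap-binding NCBP1 (-0.21, FDR 0.0493) fell as well. CTIF, which serves the nuclear cap-binding complex in initiation, was the one that rose (0.44, FDR 0.000381). PABPC1, the main poly(A)-binding protein gene, had a log2 fold change of -0.045.

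Of 9 genes for the eIF2 kinases and the phosphatase that reverses them, 2 fell and 7 did not pass, and the 22.2% lower is near the 19.2% of all tested genes. EIF2AK1, the heme-regulated kinase, fell from 190.3 ± 9.38 to 156 ± 3.04 CPM (SD, n = 3; log2 fold change -0.29, FDR 0.00130), and the phosphatase subunit PPP1CA fell by 0.31 on the log2 scale (FDR 0.000705). The kinases EIF2AK2 (0.079), EIF2AK3 (-0.018) and EIF2AK4 (-0.074) and the stress-induced regulator PPP1R15A (0.042) did not pass. In the list of 12 mTORC1 and MNK genes, which control eIF4E through 4E-BP and by phosphorylation, 3 fell and 3 rose. These shares of 25% each are near the 19.2% and 18.6% of all tested genes. RPTOR (log2 fold change 0.38, FDR 0.0276), the mTOR inhibitor DEPTOR (0.59, FDR 0.00729) and the eIF4E kinase MKNK1 (0.37, FDR 0.00587) rose. MLST8 (-0.42, FDR 0.000586), TSC2 (-0.25, FDR 0.0110) and the eIF4E kinase MKNK2 (-0.33, FDR 0.00104) fell.

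Elongation and termination genes also moved in both directions. Of 12 genes, 5 fell, 2 rose and 5 did not pass, or 41.7% lower and 16.7% higher against 19.2% and 18.6% of all tested genes. Their median absolute log2 fold change was 0.43, beside 0.16 for the initiation factor genes and 0.21 over all tested genes. The ones that fell were EEF1B2, EEF1D, EEF1G, EEF1A1, which loads tRNA onto the ribosome, and EEF2, which moves it along. EEF2 fell from 2710 ± 99.4 to 1855 ± 45.9 CPM (SD, n = 3; log2 fold change -0.55, FDR 8.99e-06), and EEF1B2 had the largest fall in the list (-1.02, FDR 0.000314). EEF1A2, the neuronal and muscle paralogue of EEF1A1, rose (0.48, FDR 6.05e-05), while EEF1A1 fell (-0.51, FDR 1.40e-05). The release factor gene GSPT1 rose from 97.6 ± 3.85 to 158.5 ± 3.94 CPM (log2 fold change 0.70, FDR 8.67e-07). Of the mitochondrial initiation factors, MTIF2 fell (-0.24, FDR 0.0193) and MTIF3 did not pass (0.17, FDR 0.368).

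**Figure D4:**
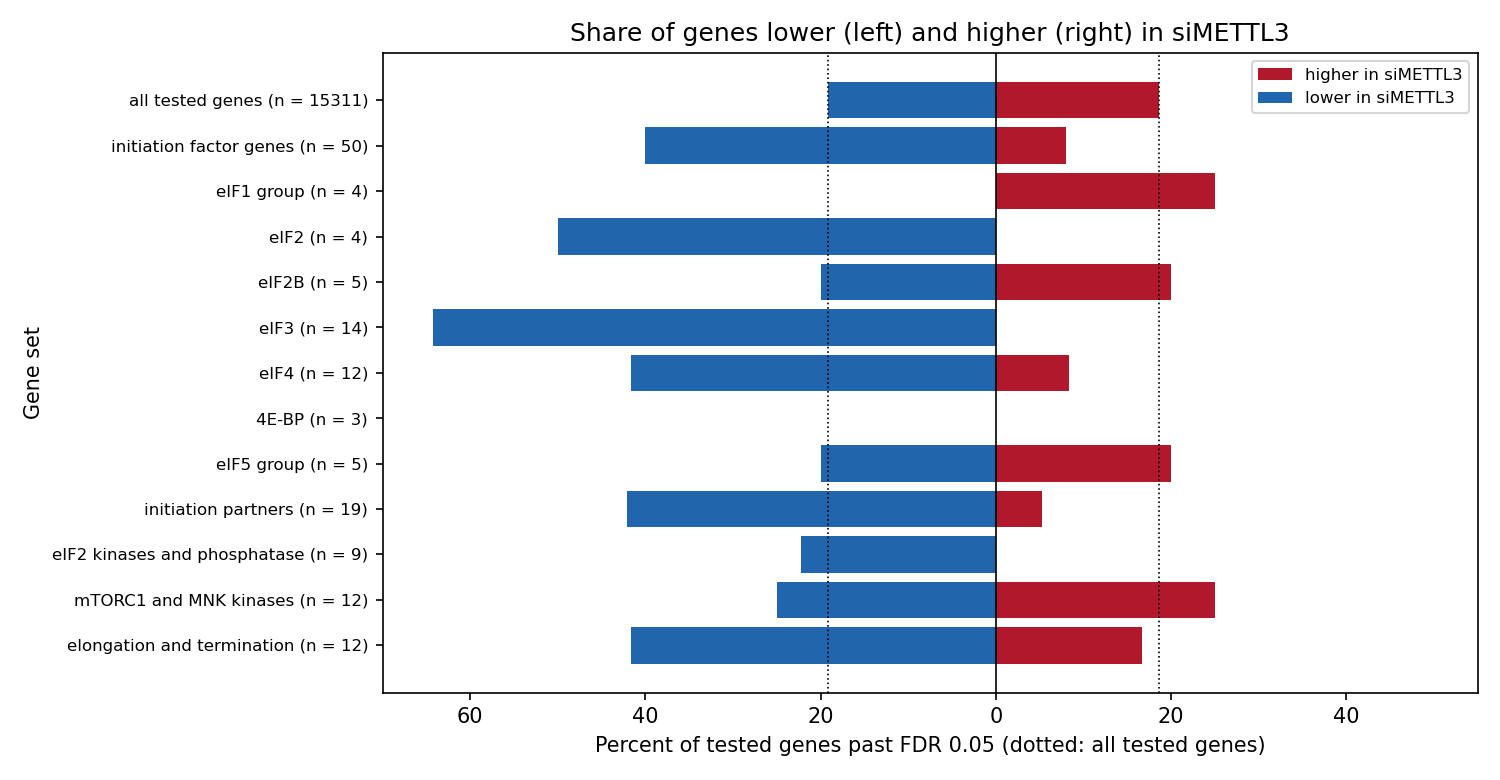
Percent of tested genes lower (left, blue) and higher (right, red) in siMETTL3 at an FDR under 0.05 (x axis), for each gene set with its number of tested genes (y axis). Dotted lines mark 19.2% lower and 18.6% higher over all 15311 tested genes, and eIF3 has 64.3% lower and none higher.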

How the data were processed

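RNA-seq of poly(A) RNA was available for 6 libraries of Kelly cells, grouped by sample title. The deposited values are raw read counts per gene, made by the authors, per the file headers, with featureCounts on a protein-only GENCODE release 33 annotation. Those headers record counting over whole genes, introns included, with reads over several genes counted for each and strand not used. FastQC 0.11.5, Trimmomatic 0.36, HISAT2 2.1.0 and Subread 1.5.3 are named in the submitters' processing notes, with build GRCh38.

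Here edgeR 4.0.16 (R 4.3.3) was used with filterByExpr, TMM scaling, robust dispersions and the quasi-likelihood F-test over all 15311 retained genes, with Benjamini-Hochberg FDR and a threshold of 0.05. SE is the absolute log2 fold change over the square root of F. CPM values use TMM-scaled totals. Levels per kilobase use the GENCODE release 44 canonical transcript, and paralogue shares the gene span. In 5 simulated draws of siMETTL3 against siControl (15311 genes), 92.5% of 2-fold and 77.1% of 1.41-fold changes (200 genes changed in all) were recovered and 5.39% of calls were false. The draws used dispersions from the trend over genes in place of those of each gene. The data themselves gave 5786 calls, so these rates need not hold for them. Promoter sequences came from RefSeq (GRCh38.p14) and matched 44 of the 52 genes.

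Members and lists were chosen with earlier results of these data known, and set counts carry no test. A marker gene of the neuroblastoma list is not reported here. All members were named, with values in every library for the 12 lowest FDR values, for the largest called change of a complex, and for EIF4EBP1 to EIF4EBP3. The values per library of EIF1, EIF2B3, EIF3H, EIF4A2, EIF4E, EIF4G1 and EIF5 were added after their values had been seen. The main fit did not pair libraries by replicate number. The alternatives, including DESeq2 1.42.0 and limma-voom (limma 3.58.1), are given in the closing section.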

Additional observations from a re-analysis of the deposited data

How the results depend on the processing

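The fit was repeated with RLE, upper quartile or no scaling, with other filters, DESeq2, limma-voom, dispersions without the robust option, a replicate block, offsets for GC content with transcript length or for intron length, genes without overlaps, and each library left out. METTL3 stayed lower and past the threshold in all of them, with log2 fold changes of -0.74 to -0.69 when a library was left out. Of the 24 called initiation factor genes, 17 (15 lower, 2 higher) kept their call in every fit that tested them. The other 7 were EIF2B3, EIF3B, EIF3C, EIF3CL, EIF3I, EIF4E3 and EIF4G3. With a library left out, the lower count went from 15 to 22 and the higher count from 2 to 6. Over all genes the lower count then went from 2119 to 3216 and the higher count from 2091 to 3178. On genes that overlap no other, 28 initiation factor genes were tested and 11 were lower, and over all genes 1898 were lower and 1852 higher, because fewer genes were tested (9518). DESeq2 called 23 of the 24. The intron length offset moved the share of higher genes among all calls from 49.2% to 36.9% and gave 22 lower and 3 higher initiation factor genes. The offset for GC content with transcript length moved that share to 40.6% and gave 22 lower and 5 higher.

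Deviations from the group means correlated at 0.052, 0.059 and 0.103 between same-numbered libraries and at -0.097 to 0.048 between the others. These values do not settle whether the replicate numbers pair the libraries, and the main fit did not use the numbers. With the replicate block 21 initiation factor genes were lower and 5 higher, all 24 calls were kept, EIF4A2 and EIF4ENIF1 passed, METTL3 stayed at -0.71 on the log2 scale, and 6166 genes were called in all. A change of pseudocount was not run, because the tables hold counts.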
